A study of Mus musculus with 4 samples.

Results

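The genes described here are 46 well-known genes of the cell division cycle, split by phase into 22 genes of DNA replication and its onset and 24 genes of mitosis. The rule takes them by name and uses no measured value, though the members were chosen with earlier results of these data known. All 46 were found among the 36464 Ensembl gene IDs in the deposited tables. All 46 also passed the filter of at least 1 RPKM in at least 2 libraries, as 12484 genes did. RPKM is a read count scaled by exon length and by the total of counted reads. Levels can be set beside each other between genes only roughly, since the length joins every annotated exon of a gene. Expression was measured by poly(A) RNA sequencing in CD8+ T cells, lymphocytes that kill target cells, enriched from percutaneous tumour grafts of wild-type male C57BL/6 mice. Mice of the control group received IgG and mice of the other group an antibody against SIGLEC15, a sialic acid-binding protein studied as an immune checkpoint, in both groups by intraperitoneal injection over 2 weeks, with n = 6 per group and collection on day 19. Every library was made from 3 samples mixed together, which gave 2 libraries per group, so SDs and p-values cover the variation from pool to pool, not that of single mice. No source used here gives the age of the mice or the grafted tumour line. The comparison bears on the question in the title of the study, how CD8+ T cells in the tumour change when SIGLEC15 is blocked, and here it asks whether transcripts of dividing cells differ.

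A cell that commits to division first loads the MCM helicase onto replication origins, with Cdc6 and Cdt1 as loaders, and then copies its DNA in S phase. Genes for this step are switched on by E2F transcription factors once cyclin and kinase complexes inactivate the retinoblastoma protein. Genes of mitosis are switched on later by a complex of MYB-MuvB and the factor FOXM1, which acts through an element called the CHR, often with CCAAT boxes nearby. In tumours, T cells that meet antigen divide, and tumour cells divide as well, so in a bulk library the same transcripts can come from either, and fewer dividing cells cannot be told apart from less RNA per cell.

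The promoters of the genes showed the split between the phases in their letters. The choice by name did not read the promoters, but the letters searched are those of the factors and elements named above. The contrast is thus a description of well-known genes, not independent support for the split. RefSeq promoters on GRCm38.p6, 250 bases before to 50 after the annotated start, were found for 38 of the 46 genes, 19 of each phase, with 2 promoters each for Mcm7 and Uhrf1. Letters of an E2F site (any of the motifs TTCGCGC, as well as TTGGCGC, as well as TTCCCGC, as well as TTGCCGC, on either strand) were found in 11 of 19 replication genes (57.9%) and in 4 of 19 mitotic genes (21.1%), against 10.9% of the 27025 genes in the table. Letters of a CHR (either of the motifs TTTGAA, as well as TTCGAA, on either strand) went the other way, with 15 of 19 mitotic genes (78.9%) and 3 of 19 replication genes (15.8%), against 21.7% of all genes. A CCAAT box, searched as those letters on either strand, was found in 17 mitotic and 13 replication genes, 89.5% and 68.4%, against 41.1% of all genes. The E2F letters can overlap a CCAAT box on the same bases, as in Mcm7, and such overlaps were counted for each motif. These are matches of letters, not sites shown to be bound, and no binding was measured here.

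Stretches around the start of 4 genes per phase are shown because they carry this contrast closest to the start. Each runs from 90 bases before the start to the 30th base of the transcript, 5′ to 3′ on the strand of the gene, and capitals mark the E2F letters in the replication genes and the CHR letters in the mitotic genes. In Mcm7 the capitals span a pair of overlapping E2F matches, and in Cdt1 the match is on the opposite strand. The first set is from Pola1 (chrX:93632126-93632245, minus strand), Prim1 (chr10:128015125-128015244, plus strand), Mcm7 (chr5:138171854-138171973, minus strand) and Cdt1 (chr8:122567925-122568044, plus strand).
Pola1: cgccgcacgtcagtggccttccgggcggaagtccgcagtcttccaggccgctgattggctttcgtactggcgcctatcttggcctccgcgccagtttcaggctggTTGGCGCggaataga
Prim1: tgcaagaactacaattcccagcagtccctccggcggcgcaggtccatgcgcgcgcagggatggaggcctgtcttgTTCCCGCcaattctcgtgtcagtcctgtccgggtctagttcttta
Mcm7: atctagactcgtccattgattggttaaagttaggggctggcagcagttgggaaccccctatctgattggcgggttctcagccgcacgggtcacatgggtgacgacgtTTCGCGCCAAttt
Cdt1: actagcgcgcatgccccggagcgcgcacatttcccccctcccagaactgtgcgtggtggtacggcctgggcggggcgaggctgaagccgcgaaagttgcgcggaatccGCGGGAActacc

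The second set is from Cenpf (chr1:189688057-189688176, minus strand), Kif23 (chr9:61946770-61946889, minus strand), Ccnb2 (chr9:70421525-70421644, minus strand) and Hmmr (chr11:40733408-40733527, minus strand).
Cenpf: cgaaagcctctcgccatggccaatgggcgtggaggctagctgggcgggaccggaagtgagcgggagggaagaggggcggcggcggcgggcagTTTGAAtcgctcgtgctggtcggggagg
Kif23: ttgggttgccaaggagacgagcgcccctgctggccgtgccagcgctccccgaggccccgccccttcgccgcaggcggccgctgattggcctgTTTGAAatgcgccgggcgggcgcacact
Ccnb2: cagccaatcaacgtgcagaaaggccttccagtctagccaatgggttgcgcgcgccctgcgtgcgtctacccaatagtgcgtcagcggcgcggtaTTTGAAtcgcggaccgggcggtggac
Hmmr: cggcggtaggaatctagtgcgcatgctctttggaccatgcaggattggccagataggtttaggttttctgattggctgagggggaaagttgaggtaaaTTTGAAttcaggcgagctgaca

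Each of these CHR matches starts within 8 bases of the annotated start. Over all 19 mitotic genes with a promoter, 14 (73.7%) had a CHR match that began within 50 bases of the start, against 1 of the 19 replication genes, Cdc45, and 6.12% of all genes in the table. For E2F letters within the same distance the counts were 7 of 19 replication genes (36.8%) and 0 of 19 mitotic genes, against 4.47% of all genes. The genes Birc5, Ccne1, E2f1, Nusap1, Tk1 and Tyms held none of these letters in the window, which says nothing of whether the factors act on them.

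**Figure D1:**
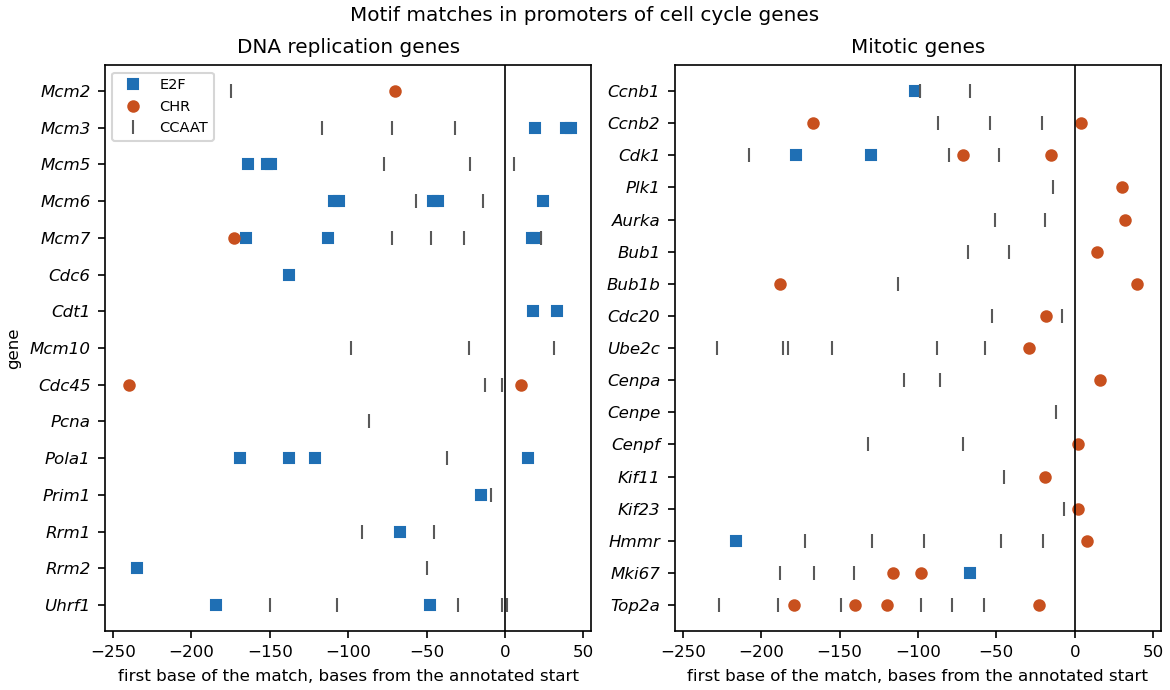
Position of each motif match in the promoters of the DNA replication genes (left) and mitotic genes (right), as bases from the annotated start (vertical line) to the first base of the match. Squares are E2F letters, circles CHR letters and ticks CCAAT boxes; CHR matches lie near the start in 14 of 19 mitotic genes, and genes without a match are not drawn.

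The libraries themselves differed before any comparison of the treatments. Counted reads recovered from the RPKM values lay between 14854806 and 16026199 per library. Transcripts of the labelled cell type were present in every library: with values listed here and below as IgG 1, IgG 2, anti-SIGLEC15 1, anti-SIGLEC15 2, Cd8a measured 115, 351, 290.2 and 315 RPKM and Cd3e 11.0, 35.9, 31.4 and 30.2 RPKM. IgG replicate 1 stood apart, with the lowest level of both genes and the highest level of Alb (serum albumin of the liver, 2795, 556, 1089 and 625 RPKM) and of S100a9 (a neutrophil gene, 579, 46.7, 149 and 245 RPKM). The IgG libraries correlated at 0.884 across the 12484 genes on the log2 scale and the anti-SIGLEC15 libraries at 0.972. The share of mitochondrial transcripts among counted reads was, in the same order, 11.87%, 12.96%, 8.91% and 18.37%.

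Cell cycle transcripts did not separate the treatments. In none of the 46 genes, 0 of 22 replication and 0 of 24 mitotic, did both anti-SIGLEC15 libraries lie on 1 side of both IgG libraries, whereas 18.1% of all tested genes did so, 12.1% higher and 6.02% lower. What separated the libraries was a difference inside each treatment: anti-SIGLEC15 replicate 1 was the highest library for 42 of 46 genes, and the lowest was IgG replicate 1 for 29 and anti-SIGLEC15 replicate 2 for 17. Among all tested genes, anti-SIGLEC15 replicate 1 was highest for 32.1%, IgG replicate 1 lowest for 43.7% and anti-SIGLEC15 replicate 2 lowest for 36.7%. The geometric mean of RPKM + 1, less 1, was 12.5, 17.4, 19.7 and 13.4 for the replication genes and 10.9, 14.5, 18 and 10.7 for the mitotic genes. By limma on log2(RPKM + 1), 0 of the 46 genes and 0 of 12484 genes in all (0.0%) passed a Benjamini-Hochberg adjusted p of 0.05, and 0 of the 46 had an unadjusted p under 0.05, against 1.17% of all genes. With limma-voom on the recovered reads, 0 of 15061 genes passed and 90 had an unadjusted p under 0.05. The count of genes apart rested on single libraries: without anti-SIGLEC15 replicate 2, 19 replication and 23 mitotic genes lay higher with anti-SIGLEC15, where 36.8% of all genes lay higher, and without IgG replicate 2, 16 and 13 did, where 44.8% of all genes did. Without anti-SIGLEC15 replicate 1, 6 and 11 lay lower, where 37.7% of all genes did, and without IgG replicate 1, 3 and 1, where 26.8% of all genes did. With 2 libraries against 2, an exact two-sided permutation test of a single gene cannot go below p = 0.333.

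**Figure D2:**
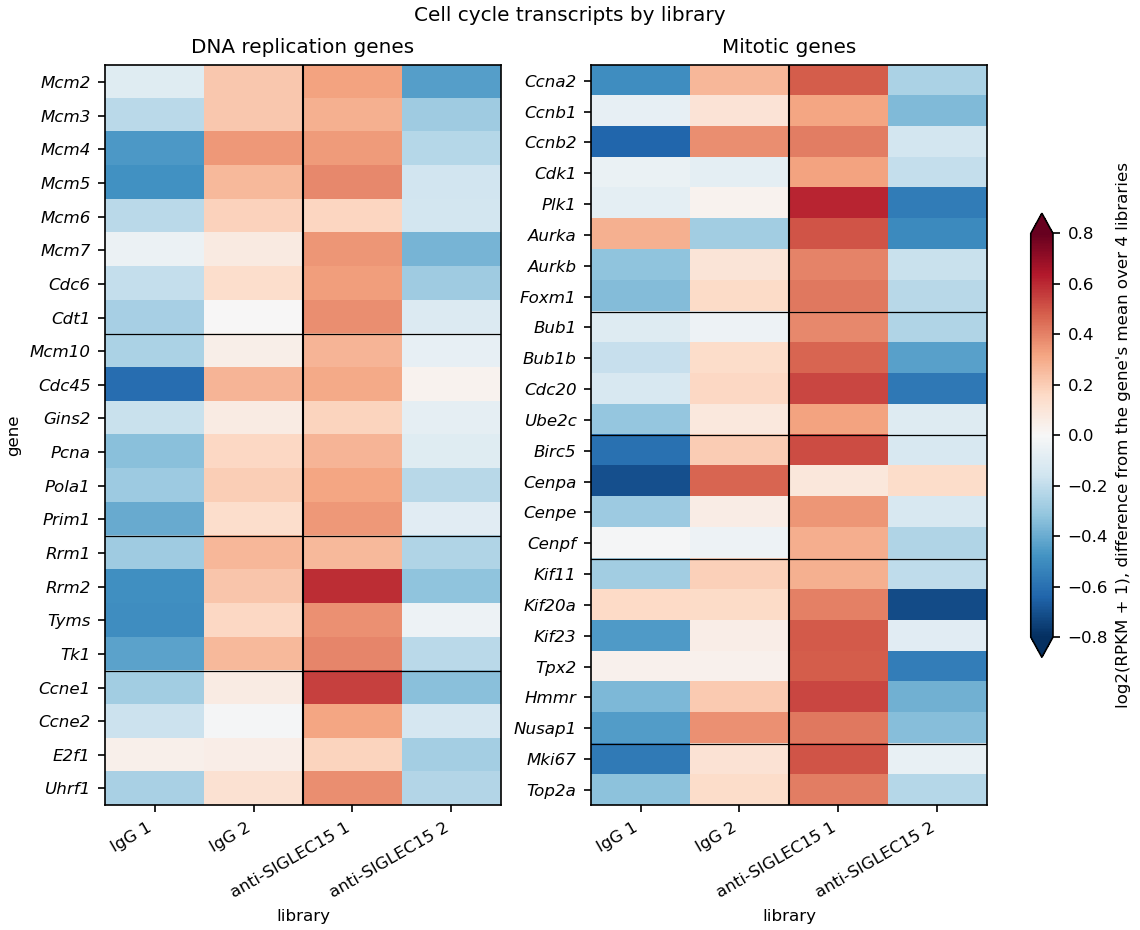
Level of each gene in each library as the difference of log2(RPKM + 1) from that gene's mean over the 4 libraries (red higher, blue lower); the vertical line divides IgG from anti-SIGLEC15, and horizontal lines divide roles. The column of anti-SIGLEC15 replicate 1 is the highest for 42 of 46 genes, while anti-SIGLEC15 replicate 2 is the lowest library for 17.

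Among the roles described here, the genes that license origins for replication had the highest geometric mean level in every library (23.8, 32.4, 35.8 and 23.7). They were uneven, with Cdc6 well below the others. The subunits of the MCM helicase, the ring that unwinds DNA, were lower in IgG replicate 1 and anti-SIGLEC15 replicate 2 than in the other libraries in 6 of 6 genes. Mcm6 measured 61.6, 81.5, 80.9 and 64.7 RPKM. Mcm3 measured 40.8, 55.1, 58.0 and 38.8 RPKM, and Mcm4 25.1, 44.7, 44.3 and 29.5 RPKM. Mcm4 and Mcm6 were highest in IgG replicate 2, by a margin of under 1 RPKM over anti-SIGLEC15 replicate 1, and Mcm3 in anti-SIGLEC15 replicate 1. Mcm5 measured 26.4, 44.8, 49.0 and 33.4 RPKM, with IgG replicate 1 lowest. Mcm7 measured 33.7, 36.6, 44.7 and 26.6 RPKM. Mcm2 measured 19.4, 24.4, 26.2 and 15.07 RPKM. In Mcm2, Mcm3 and Mcm7 anti-SIGLEC15 replicate 2 lay below both IgG libraries, and in Mcm4, Mcm5 and Mcm6 between them. The loaders of the helicase were unequal in level, with Cdc6 at 4.03, 5.33, 6.23 and 3.72 RPKM and Cdt1 at 20.9, 25.4, 33.0 and 23.4 RPKM. For Mcm2 (ENSMUSG00000002870, GRCm38 chr6:88883474-88898780, minus strand), the mean was 21.9 ± 3.55 RPKM under IgG and 20.7 ± 7.89 RPKM under anti-SIGLEC15 (SD, n = 2 each), a log2 fold change of -0.12 (SE 0.36; limma, adjusted p = 1). The means of the treatments lay closer together than the libraries inside each treatment, and the value was 0.04 without IgG replicate 2 and 0.26 without anti-SIGLEC15 replicate 2.

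Genes that act at the replication fork had IgG replicate 1 as their lowest library without exception, in 6 of 6. Pcna, the sliding clamp that holds polymerases on DNA and the most abundant gene of the set, measured 109, 155, 167 and 129 RPKM (ENSMUSG00000027342, chr2:132249162-132253314, minus strand). Its mean was 132 ± 32.2 RPKM under IgG and 148 ± 27.0 RPKM under anti-SIGLEC15 (SD, n = 2 each), a log2 fold change of 0.17 (SE 0.30; limma, adjusted p = 1), and the log2 fold change was -0.08 without IgG replicate 1 and -0.01 without anti-SIGLEC15 replicate 1. Cdc45 and Gins2, which complete the active helicase with MCM, measured 6.07, 12.0, 12.3 and 10 RPKM and 4.46, 5.46, 5.99 and 4.88 RPKM. Cdc45 set IgG replicate 1 apart from the other 3 libraries, and Gins2 varied little. Mcm10, which helps to start the helicase, measured 2.12, 2.86, 3.5 and 2.56 RPKM, Pola1, the catalytic subunit of the polymerase that starts each new strand, 2.30, 3.62, 4.02 and 2.45 RPKM, and Prim1, the primase that makes its RNA primer, 10.3, 15.5, 18 and 13.0 RPKM. These 3 low to moderate transcripts had the order IgG replicate 1, anti-SIGLEC15 replicate 2, IgG replicate 2, anti-SIGLEC15 replicate 1 from low to high.

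Enzymes that supply the building blocks of DNA followed the same order in 3 of 4 genes. Rrm2, the regulated subunit of ribonucleotide reductase, measured 17.9, 29.9, 39.0 and 20.3 RPKM, and its partner Rrm1 10.1, 15.23, 15.15 and 10.4 RPKM. Rrm2 had the widest range of the replication genes, 2.17-fold from lowest to highest library, while in Rrm1 IgG replicate 2 and anti-SIGLEC15 replicate 1 were level. Tyms, which makes thymidylate, measured 5.72, 9.63, 11.2 and 8.22 RPKM, and Tk1, which salvages thymidine, 10.2, 17.0, 18.7 and 11.9 RPKM. In both the IgG libraries enclosed anti-SIGLEC15 replicate 2.

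Regulators of the entry into S phase were of low to moderate level. E2f1, the transcription factor of this switch, measured 10.5, 10.6, 11.7 and 8.28 RPKM, with the IgG libraries level and an anti-SIGLEC15 library on each side of them. The cyclin genes Ccne1 and Ccne2, which drive entry into S phase, measured 7.99, 10.4, 14.9 and 7.64 RPKM and 2.80, 3.25, 4.32 and 2.89 RPKM. Ccne1 was 1.95-fold higher in anti-SIGLEC15 replicate 1 than in replicate 2, with the IgG libraries between them. Uhrf1, which carries DNA methylation through replication, measured 15.0, 19.9, 23.8 and 15.3 RPKM. The fewest reads behind any value of the 46 genes were the 150 reads of Ccne2 in anti-SIGLEC15 replicate 2 (95% exact Poisson interval 127 to 176, counting error only, which for PCR reads without molecular identifiers is a lower limit).

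Cyclins and kinases of mitosis split into 4 genes with IgG replicate 1 lowest and 4 with anti-SIGLEC15 replicate 2 lowest. Cdk1, the kinase that drives entry into mitosis, measured 13.2, 13.0, 17.4 and 11.9 RPKM. Its partner cyclins measured 16.8, 29.1, 34.1 and 19.97 RPKM for Ccna2, 8.69, 9.94, 11.6 and 6.93 RPKM for Ccnb1 and 36.1, 73.7, 75.5 and 51.1 RPKM for Ccnb2. Ccnb2 and Ccna2 were lowest in IgG replicate 1, and Cdk1 and Ccnb1 in anti-SIGLEC15 replicate 2. Per length, Ccnb2 exceeded Ccnb1 in every library, 4.15-fold in IgG replicate 1 and 7.42-, 6.51- and 7.37-fold in the other libraries in order. Plk1, the Polo kinase of spindle assembly and chromosome separation, measured 17.3, 18.8, 28.6 and 12.2 RPKM. Aurka, the Aurora kinase of spindle poles, measured 13.4, 8.79, 15.8 and 7.34 RPKM, and Aurkb, the Aurora kinase of the chromosomal passenger complex, 12.1, 16.6, 20.6 and 13.5 RPKM. Aurka was the gene of the set most unlike the others in the IgG pair, higher in IgG replicate 1 than in replicate 2, so that the ratio of Aurkb to Aurka was 0.903 in IgG replicate 1 and 1.89, 1.31 and 1.84 in the other libraries. Foxm1, which encodes the mitotic transcription factor, measured 6.93, 10.2, 12.5 and 7.64 RPKM, with the same order of libraries as Pcna.

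The genes of mitotic exit and the spindle had the largest median differences between the anti-SIGLEC15 libraries among the roles. Cdc20, which activates the ubiquitin ligase that ends mitosis, measured 26.1, 32.2, 41.7 and 18.9 RPKM, and Ube2c, the ubiquitin-conjugating enzyme of that ligase, 43.2, 57.1, 67.5 and 49.9 RPKM. The spindle checkpoint kinase genes Bub1 and Bub1b measured 7.25, 7.64, 10.6 and 6.51 RPKM and 9.78, 12.6, 15.9 and 8.06 RPKM. For Cdc20, Bub1 and Bub1b the lowest library was anti-SIGLEC15 replicate 2, and for Ube2c IgG replicate 1. Tpx2, which activates Aurora A at the spindle, measured 20.9, 20.96, 28.9 and 13.6 RPKM, level in the IgG pair with an anti-SIGLEC15 library on each side. Kif20a, a kinesin of cell separation, measured 6.63, 6.60, 8.03 and 3.17 RPKM, the widest range of the 46 genes at 2.54-fold and also level in the IgG pair. Kif11, the kinesin that pushes spindle poles apart, measured 3.15, 4.75, 5.13 and 3.37 RPKM, and Kif23, a kinesin of the central spindle (ENSMUSG00000032254, chr9:61915905-61946774, minus strand), 3.36, 5.18, 7.36 and 4.61 RPKM. Hmmr and Nusap1, which bind spindle microtubules, measured 3.60, 5.84, 7.55 and 3.52 RPKM and 11.6, 21.2, 22.1 and 12.6 RPKM. The log2 fold change was -0.31 (SE 0.44) for Kif20a and 0.40 (SE 0.36) for Kif23, both at a limma adjusted p of 1, so 2 kinesin genes pointed in opposite directions and neither differed beyond the spread. Without anti-SIGLEC15 replicate 2 the value of Kif20a was 0.25.

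Centromere genes and the markers used most to score proliferation were lowest in IgG replicate 1 in 5 of 6. Mki67, which encodes the Ki-67 antigen of dividing cells, measured 19.5, 31.8, 42.0 and 28.1 RPKM (ENSMUSG00000031004, chr7:135689784-135716361, minus strand). Its log2 fold change was 0.45 (SE 0.37; limma, adjusted p = 1), the largest of the set, and 0.11 without IgG replicate 1. Top2a, which untangles sister chromosomes, measured 17.3, 24.5, 29.6 and 18.6 RPKM. Birc5, the survivin gene of the passenger complex (ENSMUSG00000017716, chr11:117849251-117855743, plus strand), measured 15.6, 27.9, 35.0 and 21.9 RPKM, with a log2 fold change of 0.39 (SE 0.41; limma, adjusted p = 1) and -0.01 without IgG replicate 1. Cenpa, the histone variant that marks centromeres, was the exception to the common order at 17.5, 40.4, 30.9 and 32.3 RPKM: IgG replicate 2 was highest, and it was the only gene of the 46 that anti-SIGLEC15 replicate 2 held above replicate 1. Cenpe, a kinesin of the kinetochore, measured 3.76, 5.07, 6.44 and 4.32 RPKM. Cenpf, the least abundant gene of the set, measured 1.38, 1.33, 1.94 and 1.03 RPKM, with anti-SIGLEC15 replicate 2 lowest.

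The contrast of the phases across the treatments was small. On the log2(RPKM + 1) scale, the median log2 fold change was 0.15 for the 22 replication genes and 0.15 for the 24 mitotic genes, beside 0.02 over all tested genes, and the difference between these medians was 0.01. Individual values ran from -0.12 to 0.33 among the replication genes and from -0.31 to 0.45 among the mitotic genes, with standard errors between 0.29 and 0.45. The value was above 0 for 37 of 46 genes (80.4%), against 52.5% of all tested genes. The sign of the medians rests on single libraries: without IgG replicate 1 they were -0.09 for replication and -0.06 for mitosis, and without anti-SIGLEC15 replicate 1 they were -0.15 for each. Without IgG replicate 2 they were 0.35 and 0.41, and without anti-SIGLEC15 replicate 2 0.38 and 0.49. The mean log2 level of the replication genes exceeded that of the mitotic genes by 0.18, 0.25, 0.13 and 0.30, so the anti-SIGLEC15 values lay on both sides of the IgG values. This depends on the measure. Median log2 levels were 3.513, 4.106, 4.274 and 3.752 for replication and 3.769, 3.971, 4.32 and 3.705 for mitosis. By medians, replication lay below mitosis in IgG replicate 1 and anti-SIGLEC15 replicate 1, and both anti-SIGLEC15 differences lay between those of IgG.

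**Figure D3:**
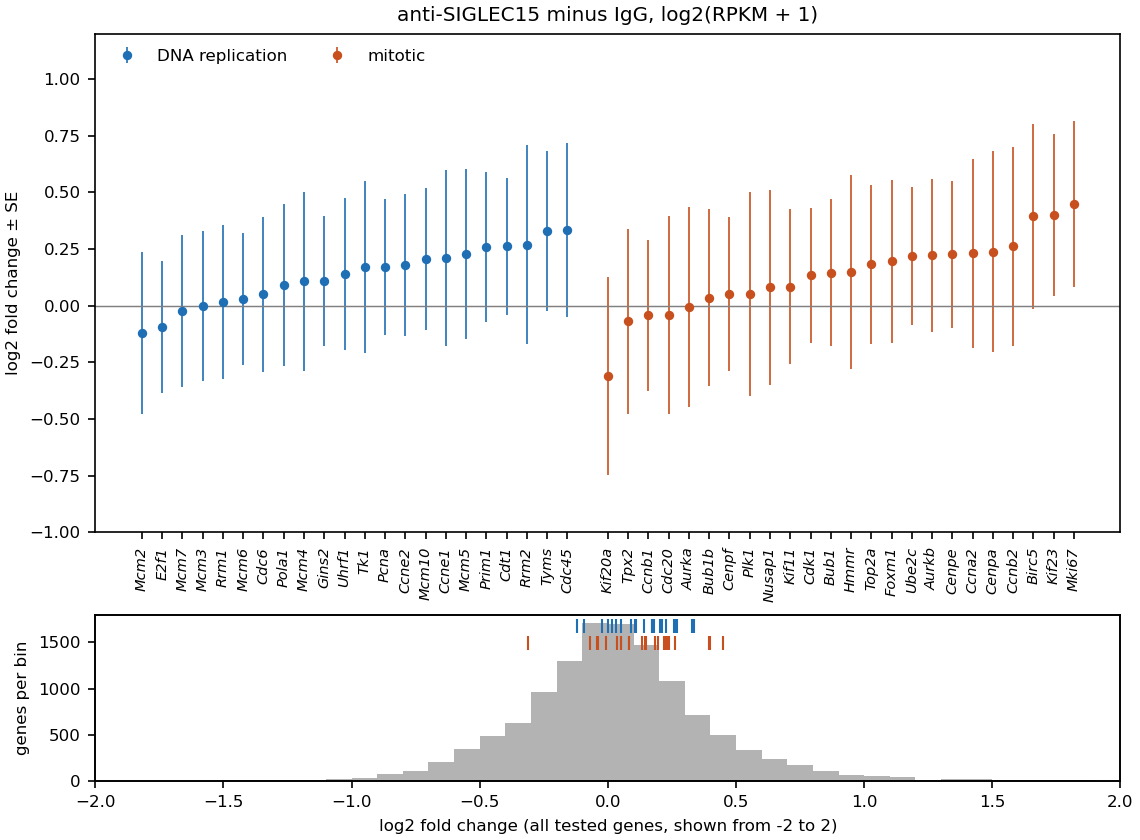
Top, log2 fold change (anti-SIGLEC15 minus IgG, log2(RPKM + 1)) of each gene with its standard error from limma, sorted within each phase. Bottom, histogram of all 12484 tested genes between -2 and 2, with ticks for the replication genes (blue) and mitotic genes (orange): the 46 values lie between -0.31 and 0.45, inside the bulk of the histogram.

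Across the 4 libraries, more mitotic than replication genes spread widely. From lowest to highest library, the mitotic genes ranged over 1.46- to 2.54-fold, with 12 of 24 above 2-fold, and the replication genes over 1.32- to 2.17-fold, with 2 of 22, Rrm2 and Cdc45, above 2-fold. Of all tested genes above 0 in every library, 39.7% had a range above 2-fold. Anti-SIGLEC15 replicate 1 exceeded replicate 2 by a median log2 difference of 0.52 over the replication genes and 0.64 over the mitotic genes, beside 0.23 over all tested genes. By role, this difference was 0.57 for licensing, 0.35 for the fork, 0.55 for nucleotide supply and 0.53 for the regulators of S phase entry. Among the mitotic roles it was 0.66 for cyclins and kinases, 0.76 for the checkpoint and mitotic exit, 0.51 for centromere and passenger genes, 0.84 for spindle genes and 0.60 for Mki67 and Top2a. The roles of the phases thus overlapped, the centromere genes lying below 3 of the 4 replication roles. As ratios of RPKM, Kif20a (2.54-fold), Plk1 (2.36-fold) and Cdc20 (2.21-fold) differed most. IgG replicate 2 exceeded replicate 1 in 22 of 22 replication and 20 of 24 mitotic genes, against 55.4% of all tested genes. The median log2 difference in the IgG pair was 0.41 for each phase, beside 0.08 over all tested genes. The 4 mitotic exceptions were Aurka, Cdk1, Cenpf and Kif20a, and Tpx2 was level. These are descriptions of 4 libraries, and with 1 value per library no test of the phases was made.

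**Figure D4:**
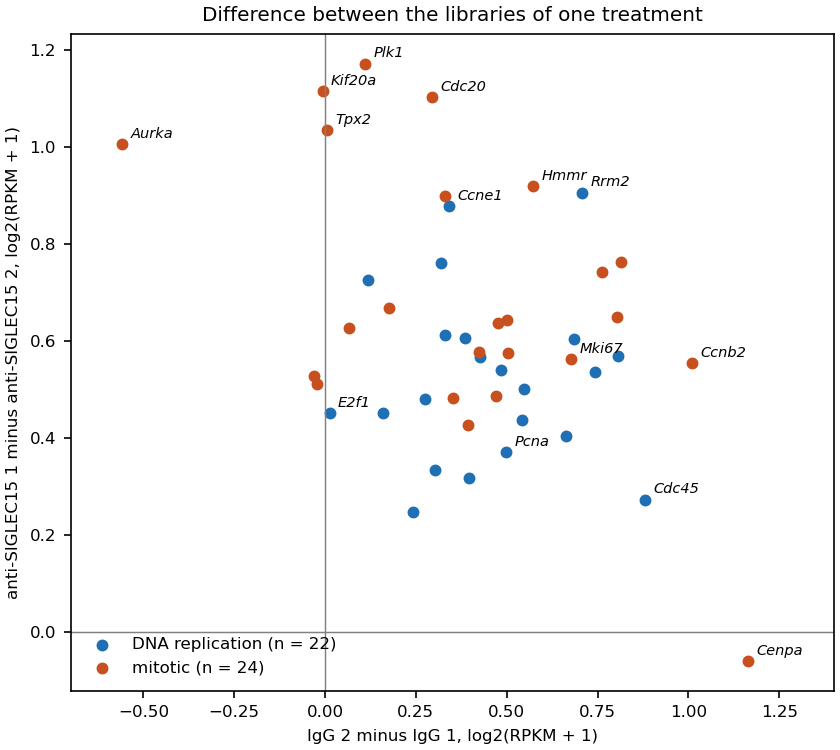
Difference of log2(RPKM + 1) between the libraries of each treatment, IgG replicate 2 minus replicate 1 on the x axis and anti-SIGLEC15 replicate 1 minus replicate 2 on the y axis, for the replication genes (blue, n = 22) and mitotic genes (orange, n = 24). The anti-SIGLEC15 difference is above 0 for 45 of 46 genes (77.7% of all tested genes) and the IgG difference for 42 (55.4% of all tested genes). Plk1, Kif20a, Cdc20, Tpx2 and Aurka stand highest and Cenpa lies lowest and furthest right.

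Levels of other cell types moved between the libraries, and their part in the cell cycle differences was not tested. The 18 T cell identity genes had geometric means of 45.6, 141, 124 and 130 and summed levels of 1736 and 5856 RPKM under IgG and 5194 and 5199 RPKM with anti-SIGLEC15. The anti-SIGLEC15 libraries were thus alike in T cell transcripts, with a median log2 difference of -0.03. In the same pair 45 of the 46 cell cycle genes were higher in replicate 1, against 77.7% of all tested genes. The 15 liver genes, which hepatocytes and liver tumours express, had geometric means of 94.4, 27.9, 68.5 and 23.4. Their sums were 6933 and 1428 RPKM under IgG and 3003 and 1490 RPKM with anti-SIGLEC15. Of these genes, 15 of 15 were higher in anti-SIGLEC15 replicate 1 than in replicate 2, against 77.7% of all tested genes. The 8 epithelial genes summed to 2575 and 473 RPKM under IgG and 921 and 631 RPKM with anti-SIGLEC15. The 10 neutrophil genes summed to 847 and 69.3 RPKM under IgG and 216 and 367 RPKM with anti-SIGLEC15, with Camp at 0 in IgG replicate 2, and the 10 macrophage genes to 109 and 40.5 RPKM under IgG and 53.7 and 80.0 RPKM with anti-SIGLEC15. By these sums IgG replicate 1 was the highest library for liver, epithelial, neutrophil and macrophage genes and the lowest for T cell genes. Single genes differed. Of 15 liver genes, 5 were higher in anti-SIGLEC15 replicate 1 than in IgG replicate 1, against 61.2% of all tested genes. Red cell genes, made by a lineage that divides before it matures, summed to 692 and 1929 RPKM under IgG and 113 and 19.9 RPKM with anti-SIGLEC15. Sums of B cell genes (up to 1.85 RPKM), natural killer cell genes (up to 1.90 RPKM) and stromal and endothelial genes (up to 5.07 RPKM) were near 0 in every library, with Ms4a1, Klrb1c, Klra8, Ncr1 and Kdr at 0 in at least 1 library. The 3 markers of CD4+ T cells summed to 17.9 and 10.9 RPKM under IgG and 15.6 and 9.59 RPKM with anti-SIGLEC15. These sums join markers that went opposite ways. Cd4 was lowest in IgG replicate 1, with IgG 2, anti-SIGLEC15 1 and anti-SIGLEC15 2 higher by 0.953, 1.36 and 0.895 log2. Zbtb7b was highest there, with log2 differences of -1.35, -0.886 and -1.52 in the same order.

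**Figure D5:**
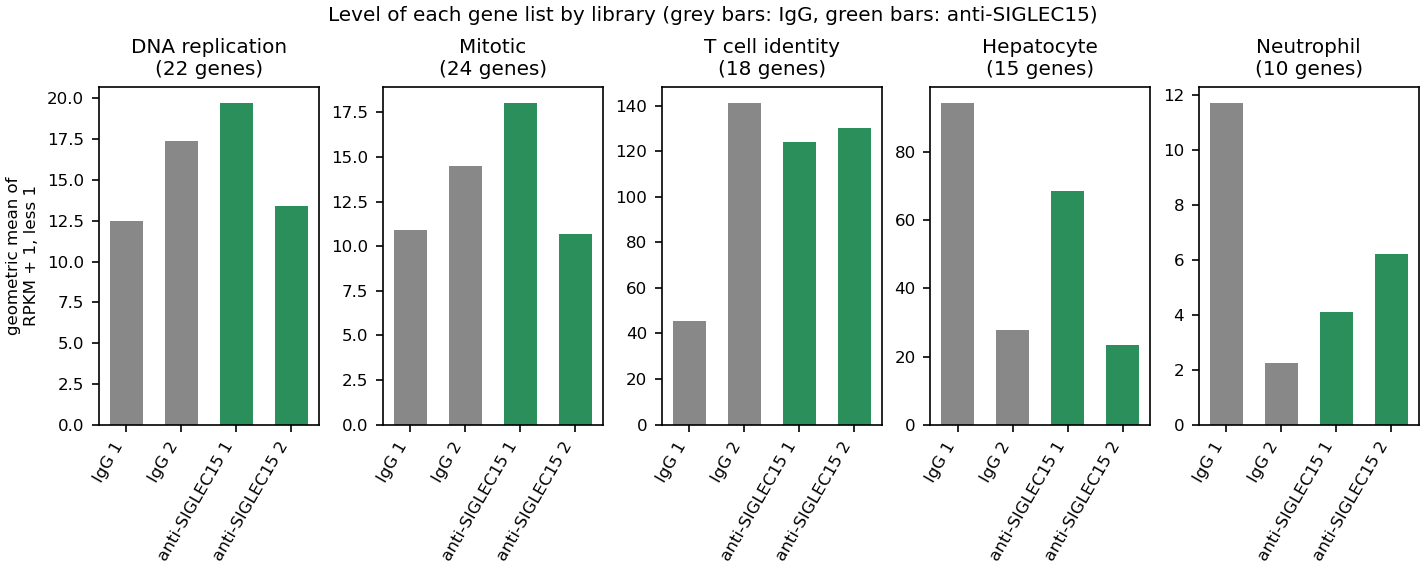
Geometric mean of RPKM + 1, less 1, of the replication genes, mitotic genes and marker lists of T cells, hepatocytes and neutrophils in each library (grey, IgG; green, anti-SIGLEC15), each panel with its own axis from 0. Anti-SIGLEC15 replicate 1 is highest for both cell cycle lists at 19.7 and 18, whereas IgG replicate 1 is lowest for T cells at 45.6 and highest for hepatocytes at 94.4.

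Another scaling changed the order of the libraries, for the cell cycle genes as for genes at large. The summed RPKM of the 46 cell cycle genes divided by that of the T cell genes gave 0.45, 0.19, 0.244 and 0.162 in the usual order. Scaled to the T cell genes, IgG replicate 1 was the highest library for every mitotic gene (24 of 24) and anti-SIGLEC15 replicate 2 the lowest for 24 of 24, and both counts were 22 of 22 for the replication genes. This scaling moves every gene of a library alike, and of all tested genes IgG replicate 1 was then highest for 89.2% and anti-SIGLEC15 replicate 2 lowest for 48.3%. The median log2 fold change under it was -0.46 for replication and -0.45 for mitosis, with the median of all genes at -0.55. Under median-of-ratios scaling, which sets the median gene equal between libraries, anti-SIGLEC15 replicate 1 was highest for 19 of 24 mitotic genes but 10 of 22 replication genes, IgG replicate 2 being highest for 11, where anti-SIGLEC15 replicate 1 was highest for 11.1% and IgG replicate 2 for 21.6% of all tested genes. Scaled to non-mitochondrial reads, a scaling chosen after the data were seen, anti-SIGLEC15 replicate 1 was highest for 39 of 46, against 22.5% of all tested genes.

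Other genes of the cycle, from lists drawn up by function, also held 0 genes that passed the test in either phase. Among 54 tested further genes of replication and repair, 0 passed the test, both anti-SIGLEC15 libraries lay above both IgG libraries in 4 and below in 0, and the median log2 fold change was 0.14. Rpa2, a subunit of the protein that coats single-stranded DNA, measured 13.4, 28.0, 32.0 and 32.1 RPKM, its partner Rpa3 25.3, 23.8, 31.9 and 25.8 RPKM and the polymerase delta subunit Pold3 8.99, 10.8, 14.3 and 10.9 RPKM. For Rpa3 and Pold3 the lower anti-SIGLEC15 library lay less than 1 RPKM above the higher IgG library. Among 79 tested further genes of mitosis, 0 passed, 5 lay higher and 0 lower, with a median of 0.19. Hmgb2, a chromatin protein of dividing cells, measured 105, 214, 273 and 227 RPKM, the nuclear lamin gene Lmnb1 44.1, 75.7, 78.8 and 81.7 RPKM and Cks2, a subunit of cyclin-dependent kinase complexes, 73.0, 82.9, 112 and 88.5 RPKM. The shares apart, 4 of 54 and 5 of 79, were below the 12.1% of all genes that lay higher. Stmn1, which destabilises microtubules, measured 58.0, 94.99, 116 and 80.4 RPKM, and Gmnn, the geminin that blocks a second round of licensing, 19.6, 29.0, 31.8 and 26.1 RPKM.

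Genes upstream of the switch had mixed orders of libraries, with IgG replicate 1 at either end. Of 23 tested G1 cyclins, kinases and E2F and retinoblastoma family genes, 0 passed and 1 lay lower, Tfdp2, at under 2 RPKM in each library. Over all tested genes, 6.02% lay lower and 18.1% lay apart in either direction. Cdk4, the kinase of early G1, measured 131, 74.2, 98.1 and 69.97 RPKM, and Myc, a driver of growth, 113, 106, 161 and 95.7 RPKM. IgG replicate 1 was the highest library for Cdk4 but the lowest for Cdk6 (5.42, 10.4, 9.38 and 7.93 RPKM) and for the cyclin gene Ccnd2 (1.81, 5.14, 4.92 and 3.83 RPKM). Ccnd3, another G1 cyclin, measured 12.0, 13.9, 16.7 and 11.8 RPKM and Rb1, the retinoblastoma gene, 3.07, 7.79, 7.36 and 6.46 RPKM. Of 8 tested inhibitors of these kinases, 0 passed and 0 lay apart. With 18.1% of all tested genes apart, a count of 0 in a list of 8 is only described. Cdkn1a, the p21 gene that halts the cycle, measured 82.3, 31.5, 34.4 and 35.7 RPKM, with IgG replicate 1 far above the other 3. Cdkn1b, the p27 gene of resting T cells, measured 22.6, 40.4, 41.1 and 33.4 RPKM and Cdkn2d 10.2, 21.1, 27.0 and 19.97 RPKM, both lowest in IgG replicate 1. Cdkn2a measured 10.8, 11.7, 12.1 and 9.94 RPKM and Cdkn2c 10.2, 10.2, 13.1 and 8.55 RPKM, both with the IgG libraries close together and an anti-SIGLEC15 library on each side.

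Genes of the switch to mitosis and of rest were also without a call. Of 6 tested genes of the MYB-MuvB complex, 0 passed and 1 lay higher, Lin37 (11.0, 14.5, 17.7 and 14.7 RPKM), while Mybl2, its MYB subunit, measured 9.43, 11.0, 11.8 and 8.33 RPKM. Of 17 tested subunits and regulators of the ubiquitin ligase that ends mitosis, 0 passed and 0 lay apart, with a median log2 fold change of -0.03. Of 11 tested genes tied to quiescence, 0 passed and 3 lay higher, Btg1, Foxp1 and Slfn2, with a median of 0.13. In the full table, 12.1% of genes lay higher and 18.1% lay apart in either direction. With lists of 6, 17 and 11 genes, these counts are only described. Btg1, which restrains division, measured 171, 307, 317 and 359 RPKM, and Klf2, a factor of resting T cells, 392, 135, 350.4 and 180.1 RPKM. Klf2 was higher in IgG replicate 1 and anti-SIGLEC15 replicate 1 than in the other libraries.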

How the data were processed

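The tables give 1 RPKM value per Ensembl gene ID and library, on GRCm38 (mm10) per the submitters' processing notes. The sources used here name no aligner or counter. RPKM was taken as the unit because the authors' deposited values, multiplied by union exon lengths of GENCODE M21, gave whole reads (within 0.02, genes under 1000 reads) for 98.92% to 98.97% of values in each library, and these reads sum to 14854806 to 16026199 per library. Symbols were found for 36386 of 36464 IDs.

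Genes of at least 1 RPKM in at least 2 libraries were tested on log2(RPKM + 1), a scale that understates changes of low genes, with limma 3.58.1 (trend and robust) in R 4.3.3 and Benjamini-Hochberg adjustment at 0.05 over 12484 genes. The alternatives were another pseudocount, filter or scaling, limma-voom on recovered reads with their totals as library sizes, a block by replicate number and leaving out libraries in turn. On data simulated for this comparison with a dispersion of 0.05, over 12435 genes, limma recovered 16.0% of 2-fold and 95.6% of 4-fold changes, and 15.8% of calls were false. Simulated libraries of a treatment shared the same mean share of reads per gene. In the data, IgG replicate 2 exceeded IgG replicate 1 by a median log2 difference of 1.51 over the 18 T cell genes. The spread was thus larger for such genes, and the shares do not give the power here.

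The members and lists were chosen with earlier results of these data known. All 46 genes are named. From each further list up to 4 genes apart with a mean of at least 5 RPKM are named by size of change, with a few regulators and markers, and up to 4 promoters per phase with the motif nearest the start. Tfdp2, Foxp1 and Slfn2 were named after their values were seen. Promoters come from RefSeq (GRCm38.p6).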

Additional observations from a re-analysis of the deposited data

How the results depend on the processing

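With 2 libraries per treatment 0 of 12484 genes passed, among them 5 red cell genes with a median log2 fold change of -4.42, so an uncalled gene is not shown to be unchanged. None of the 46 genes (0) passed under any of the 12 alternatives, and the smallest adjusted p was 0.059 for Ccnb2 without IgG replicate 2. The difference between the phase medians lay between -0.11 and 0.01 under the 12 alternatives. This move was smaller than 0.20, the pooled SD between replicate libraries of the difference of median log2 levels. That SD describes levels in single libraries, not fold changes between treatments, so the values are only roughly comparable. For the difference of mean levels the SD was 0.0435 for IgG and 0.118 for anti-SIGLEC15, so whether the move is small depends on the measure. Scaled to T cell genes, which moves the median of all genes to -0.55, 3 genes of the series passed in place of 0, the medians were -0.46 for replication and -0.45 for mitosis, 1 mitotic gene lay apart (lower, where 11.7% of all genes lay apart), and the log2 fold changes were -0.49 for Pcna, -0.20 for Mki67, -0.25 for Birc5 and -0.16 for Kif23. With median-of-ratios scaling 2 of 22 replication genes lay apart, 1 higher and 1 lower, where 22.8% of all genes did.

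With a library left out, the remaining library is assumed to vary like the other treatment. Genes called in the series then ranged from 0 to 2251 (135 without IgG replicate 1, 2251 without IgG replicate 2). The medians ranged from -0.15 to 0.38 for replication and from -0.15 to 0.49 for mitosis, and the difference of medians from -0.11 to 0.00. Genes apart ranged from 3 to 19 for replication and from 1 to 23 for mitosis. In these fits 45.1% to 81.9% of all genes lay apart, against 18.1% with all libraries, so the counts rise partly with that share. Log2 fold changes ranged from -0.077 to 0.42 for Pcna, -0.50 to 0.26 for Mcm2, 0.11 to 0.79 for Mki67, -0.0077 to 0.79 for Birc5, 0.11 to 0.69 for Kif23 and -0.87 to 0.25 for Kif20a. The cause of these changes was not tested.

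The replicate numbers are shared by the treatments, but nothing in the labels ties them to a batch. Deviations of same-numbered libraries correlated at 0.33 over all tested genes and at 0.398 over the 46 cell cycle genes. The shifts of these 46 ran opposite ways. Under IgG, replicate 1 lay below replicate 2 in 42, against 55.4% of all tested genes. With anti-SIGLEC15, replicate 1 lay above replicate 2 in 45, against 77.7%. With the number as a replicate block 0 genes passed, and 303 in place of 146 had an unadjusted p under 0.05.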
